A study of Mus musculus with 8 samples.

Results

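The core myelin protein genes described here are 9 genes, Mbp, Mobp, Cldn11, Mal, Cnp, Mag, Mog, Opalin and Plekhb1, of the 18833 genes in a single-cell expression matrix of mature oligodendrocytes. They were chosen by name for their place in the myelin sheath, and all 9 were found in the matrix. Hippocampus and cortex were sampled from 2 wild-type mice (Fire+/+, WT, mice 1 and 4) and 2 knockout mice (Fire Δ/Δ, KO, mice 3 and 6), which gave 8 libraries and 12581 cells. In KO mice an intronic enhancer of Csf1r, the receptor on which microglia depend, is deleted in the germline, so the mice lack microglia but retain other brain macrophages. All mice were females on a mixed CBA and C57Bl6J background. By the labels, mice 1 and 3 had reached 1 month and 18 days of age, the other two 1 month and 16 days. Libraries of 1 tissue from mice 1 and 3 shared a batch, as did those from mice 4 and 6. Each of the 4 batches therefore held 1 WT and 1 KO library of the same tissue. Neither age nor tissue can be told apart from batch. The cortex sample was what remained of the left hemisphere without the hippocampus, so it also held white matter and deeper structures.

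Myelin is the multilayered membrane that oligodendrocytes wrap around axons, and its proteins differ by where they sit in that sheath. Mbp and Mobp are small basic proteins of compact myelin, where MBP holds the cytoplasmic faces of the membrane together. Claudin 11 (Cldn11) forms the tight junctions between the layers, and MAL is a tetraspan protein of lipid-rich membrane domains. CNP keeps cytoplasmic channels open in non-compact myelin, MAG sits on the innermost membrane next to the axon, and MOG lies on the outermost surface. Opalin is a transmembrane glycoprotein of mature oligodendrocytes, and Plekhb1 is a membrane-bound protein with a pleckstrin homology domain.

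The genes lie on 8 chromosomes of the mouse genome (GRCm38, GENCODE annotation). Mobp (ENSMUSG00000032517, chr9:120149707-120181484) shares exon sequence on its own strand with the noncoding gene Gm38642. Reads from the shared part cannot be assigned to either gene, so the level of Mobp is less certain than that of the others. The reads counted for Gm38642 itself came to at most 0.0275 UMIs per 10000. Cnp (ENSMUSG00000006782, chr11:100574904-100591729) overlaps exons of Dnajc7 on the opposite strand. Cldn11 (ENSMUSG00000037625) spans chr3:31149920-31164324, Mal (ENSMUSG00000027375) chr2:127633226-127656695 and Opalin (ENSMUSG00000050121) chr19:41061710-41077113. On chromosome 7 lie Plekhb1 (ENSMUSG00000030701, chr7:100642892-100662414) and Mag (ENSMUSG00000036634, chr7:30899176-30914873). Mog (ENSMUSG00000076439) is at chr17:37010743-37023398 and Mbp (ENSMUSG00000041607) at chr18:82475146-82585637.

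Libraries held 904 to 2784 cells with median depths of 9377 to 13725.5 unique molecular identifiers (UMIs) per cell, a UMI marking 1 captured RNA molecule. The authors describe their batch 6 as having lower quality. In the cell table batch 6 is the cortex of WT mouse 4 and KO mouse 6. The median mitochondrial share of UMIs was 6.29% and 6.23% there, and 4.54% to 5.46% in the other libraries. Csf1r was at 0.0516 to 0.114 UMIs per 10000 in WT libraries and at 0 to 0.0014 in KO libraries, as the labels state. Of the mature oligodendrocyte markers outside the 9 genes, Ermn averaged 23.9 and Aspa 7.53 UMIs per 10000 in WT mice, and 25.6 and 7.01 in KO mice. Astrocyte markers summed to at most 2.72 and microglial markers to at most 1.05 UMIs per 10000. Erythrocyte genes ranged from 0.316 to 9.94 in WT and from 0.823 to 8.78 in KO libraries, and their part in the results was not tested. The authors had recognised the cells by the expression of myelin genes that included Mog, Mag and Mbp, so a cell with little Mog, Mag or Mbp could not enter the matrix. Of the 12560 distinct barcodes, 21 occurred in more than 1 library.

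The 9 genes were expressed in nearly every cell. For Mbp, Cldn11, Mal, Cnp and Mag, 100% of cells carried a UMI in each library even after every cell was thinned to 5000 UMIs. Opalin was found in 96.5% to 99.4% of cells and Plekhb1 in 96.8% to 99.8%. After thinning these shares were 90.5% to 98.5% for Opalin and 86.1% to 93.7% for Plekhb1. No other cell type was in the matrix against which RNA free in the droplets could be measured.

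Whether oligodendrocytes that matured without microglia transcribe the core myelin genes at wild-type levels was asked first. No member passed the test between genotypes. In the plot of each member by mouse, the KO and WT mice interleaved for 8 of the 9 genes, and Cldn11 was the gene whose KO mice both lay above both WT mice. The test was limma on each mouse's mean log2 value, log2(UMI count/size factor + 1) averaged over cells and then over both tissues, with Benjamini-Hochberg adjustment over 9257 genes. It called 5 genes in all, 0.054% of those tested, and 0 of the 9 members. The adjusted p was 1.00 for each member, and 0 members had an unadjusted p under 0.05. edgeR and DESeq2 on UMI sums also called 0 members.

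**Figure D1:**
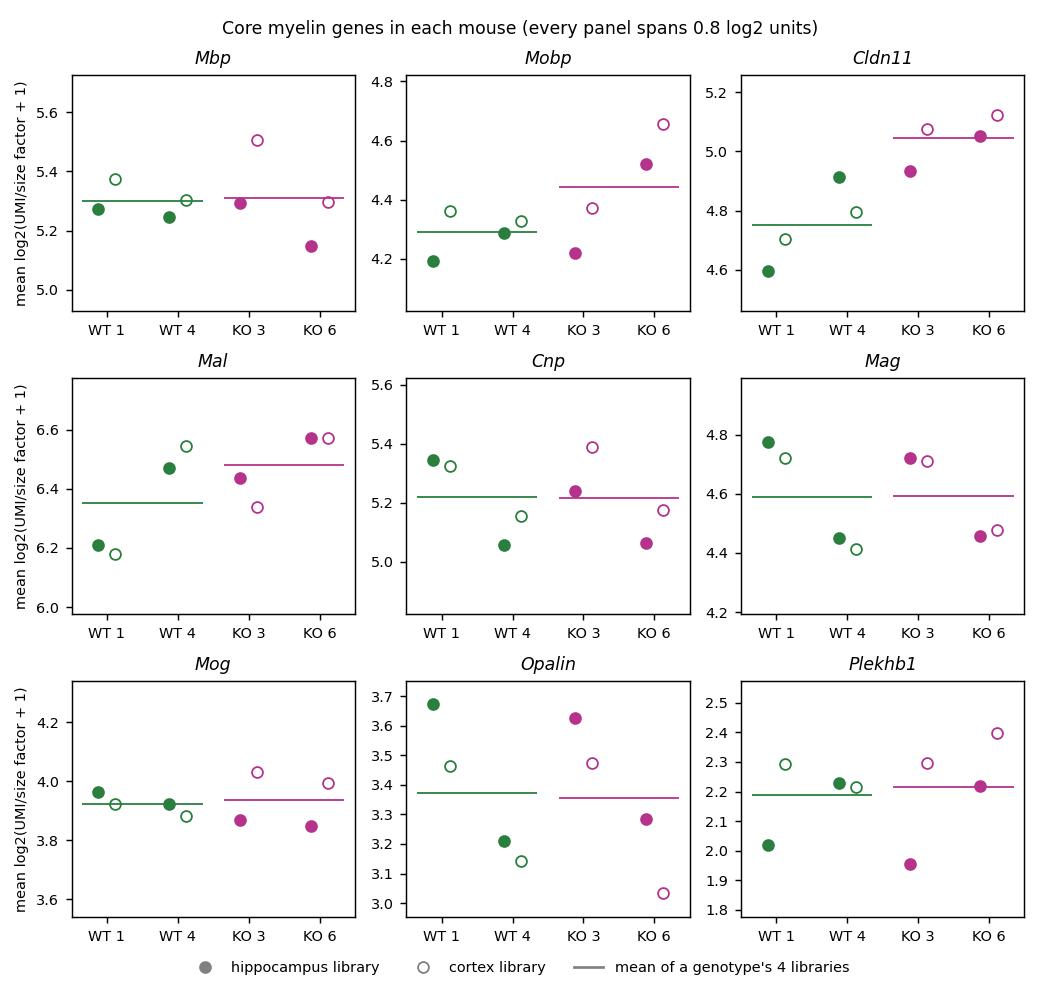
Mean log2(UMI/size factor + 1) of each gene over the cells of a library, by mouse (WT 1, WT 4, KO 3, KO 6), with filled circles for hippocampus, open circles for cortex and a line at the mean of a genotype's 4 libraries. The 4 KO libraries lie above the 4 WT libraries for Cldn11, while Cnp, Mag and Opalin are higher in mice 1 and 3 than in mice 4 and 6 within each tissue.

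Cldn11 had the largest difference of the members. Its mean log2 level was 4.65 and 4.85 in WT mice 1 and 4, and 5.01 and 5.09 in KO mice 3 and 6. Both KO mice were above both WT mice, as for 11.9% of all genes tested, by a mean of 0.29 log2 units (SE 0.15, 95% interval -0.08 to 0.67, limma adjusted p = 1.00, n = 2 mice per genotype). On the linear scale this was 35.0 UMIs per 10000 in WT and 43.8 in KO mice, 24.9% more. KO exceeded WT in each of the 4 batches, by 0.34 and 0.14 in hippocampus and by 0.37 and 0.33 in cortex. These batches held 2 pairs of mice, each sampled in both tissues, and are not independent. How many of all genes do the same was not counted. With a block for the pairs of mice that shared age and batch, the limma adjusted p of Cldn11 was 0.281 (unadjusted p = 0.00804). Cells of Oligo1, a cluster found almost only in KO mice (10.8% to 30.9% of cells in KO and at most 0.573% in WT libraries), had high Cldn11. Without them, over Oligo2 to Oligo4 cells, the Cldn11 difference was 0.20 (adjusted p = 1.00).

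Among the compact myelin genes, Mbp averaged 5.32 and 5.27 in WT mice 1 and 4, and 5.40 and 5.22 in KO mice 3 and 6. The KO pair spanned the WT pair, and the difference was 0.01 (SE 0.13, interval -0.31 to 0.33). Mobp stood at 4.28 and 4.31 in WT mice and at 4.30 and 4.59 in KO mice, so that KO mouse 6 alone stood apart. The difference of Mobp was 0.15 (SE 0.18, interval -0.29 to 0.59), and without mouse 6 it was 0.00.

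Mal, the other tetraspan gene, was at 6.20 and 6.51 in WT mice 1 and 4, and at 6.39 and 6.57 in KO mice 3 and 6. The mice of a genotype differed by more than the genotypes did, and the KO minus WT difference was 0.13 (SE 0.12, interval -0.17 to 0.43). In each batch the KO library was the higher, by 0.03 to 0.23, but the batches held only 2 pairs of mice. How many of all genes do the same was not counted. The pair block gave a limma adjusted p of 0.522 for Mal.

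For the genes of non-compact myelin and of the sheath surfaces the genotype means nearly coincided. Cnp was at 5.34 and 5.11 in WT mice and at 5.32 and 5.12 in KO mice, a difference of -0.0031 (SE 0.15, interval -0.37 to 0.36). Mag was at 4.75 and 4.43 in WT and at 4.72 and 4.47 in KO mice, a difference of 0.0022 (SE 0.19, interval -0.46 to 0.47). In both genes each KO mouse lay close to the WT mouse of its own batches and far from the other KO mouse.

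Mog varied least between mice of all 9 genes. It was at 3.94 and 3.90 in WT mice and at 3.95 and 3.92 in KO mice, a difference of 0.01 (SE 0.17, interval -0.41 to 0.43). The SD between mice was 0.03 in WT and 0.02 in KO, so this SE rests mostly on other genes of similar level. With a constant variance prior in limma the SE of Mog was 0.02. Opalin was at 3.57 and 3.18 in WT and at 3.55 and 3.16 in KO mice, a difference of -0.02 (SE 0.23, interval -0.59 to 0.55). Plekhb1 was at 2.16 and 2.22 in WT and at 2.12 and 2.31 in KO mice, a difference of 0.03 (SE 0.14, interval -0.31 to 0.37). The 95% intervals of the 9 genes reached 0.30 to 0.57 log2 units to either side of the difference. With the pair block they reached 0.13 to 0.23, and the interval of Cldn11 was 0.11 to 0.48.

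Within clusters that both genotypes held, the members were compared again. The authors had grouped the cells into Oligo1 to Oligo4 from the same expression values. In Oligo2 limma called 2 of 9292 genes (0.0215%), in Oligo3 1 of 9135 (0.0109%) and in Oligo4 9 of 9381 (0.0959%), and 0 of the 9 members in each, with 0 members at an unadjusted p under 0.05. Member differences ran from -0.05 to 0.25 in Oligo2, from -0.07 to 0.13 in Oligo3 and from -0.07 to 0.18 in Oligo4. The highest of each range was Cldn11. In Oligo2 its mouse means were 4.68 and 4.79 in WT and 4.98 and 5.00 in KO, and in Oligo4 they were 5.31 and 5.37 in WT and 5.55 and 5.50 in KO, without overlap in either cluster. Both KO mice lay above both WT mice for 11.2% of all genes tested in Oligo2, 8.74% in Oligo3 and 14.2% in Oligo4. In Oligo3, which held the largest share of cells, they were 4.61 and 4.79 in WT and 4.75 and 4.91 in KO, and the genotypes overlapped. With the pair block Cldn11 had adjusted p values of 0.827 in Oligo2, 0.907 in Oligo3 and 0.422 in Oligo4.

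**Figure D2:**
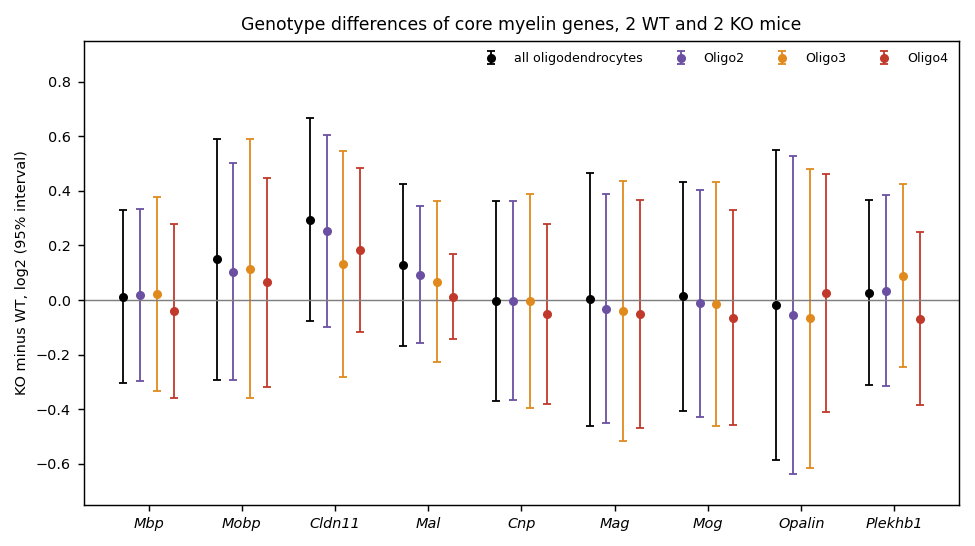
KO minus WT difference in mean log2(UMI/size factor + 1) for each gene, over all oligodendrocytes and within Oligo2, Oligo3 and Oligo4, with 95% intervals from limma on 2 WT and 2 KO mice. Every interval includes 0, and the point for Cldn11 is the highest of the 9 in each series.

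As a share of all UMIs, the 9 genes together made up 3.31% to 3.47% in the 4 WT libraries and 3.54% to 3.70% in the 4 KO libraries, which did not overlap. Each mouse gave a hippocampus and a cortex library, so the 4 libraries of a genotype are not independent. Among single genes, both KO mice lay above both WT mice for 11.9% of all genes tested. How often sums of other genes separate in this way was not tested. The genotype means were 338 and 362 UMIs per 10000, a difference of 23.9, of which Mal contributed 10.5, Cldn11 8.73 and Mobp 2.99. The remaining 6 genes contributed less than 1 UMI per 10000 each. The sum also differed between clusters. The 9 genes took 4.68% to 5.11% of UMIs in Oligo4 and 3.83% to 4.35% in KO Oligo1, but 2.97% to 3.34% in Oligo2. Within Oligo3 the sum was 3.20% to 3.37% in WT and 3.12% to 3.58% in KO libraries, within Oligo4 4.68% to 5.11% and 4.84% to 5.09%, both overlapping. Within Oligo2 it was 2.97% to 3.16% in WT and 3.15% to 3.34% in KO, which overlapped by a narrow margin. In KO hippocampus and cortex the sum was 3.54% and 3.57% in mouse 3, and 3.67% and 3.70% in mouse 6. Oligo1 made up 30.9% and 13.7% of cells in these libraries of mouse 3, and 23.2% and 10.8% in those of mouse 6. The part of cluster makeup in the genotype difference of the sum was not tested.

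The levels of some members varied widely between clusters. The following values describe the clusters and test nothing, since the clusters were made from the same values. Opalin, Mal and Cldn11 varied most, and the other 6 genes varied less. Clusters accounted for a median of 34.0% of the variance between cells of a library for Opalin, 31.5% for Mal and 19.1% for Cldn11, against 1.88% for Mag, 2.62% for Mbp, 2.80% for Plekhb1, 3.60% for Mog, 7.67% for Cnp and 8.46% for Mobp.

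Opalin was lowest in Oligo2 and highest in Oligo4 among Oligo2 to Oligo4 in 8 of 8 libraries. Its median over libraries was 2.41 in Oligo2 (range 1.75 to 2.76), 3.48 in Oligo3 (3.34 to 3.81) and 4.14 in Oligo4 (3.87 to 4.33). The ranges of the 3 clusters did not overlap, and in UMIs per 10000 the ratio of the highest to the lowest cluster was 2.51 to 4.74. Cells without an Opalin UMI were also mostly in Oligo2. After thinning to 5000 UMIs per cell, 8.20% to 32.2% of Oligo2 cells had none, against 0.166% to 2.37% in Oligo3 and 0% in Oligo4. Before thinning the Oligo2 share was 3.70% to 14.1%, with median depths of 10202.5 to 14282.5 UMIs in that cluster. The share was lowest in the hippocampus of WT mouse 1 (31 of 378 cells, 95% exact interval 5.64% to 11.4%) and highest in the cortex of KO mouse 6 (73 of 227 cells, 26.1% to 38.7%). These intervals cover counting error only. The cortex library of KO mouse 6 is of batch 6, to which the authors ascribe lower quality, and the part of quality in its share was not tested.

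Mal followed the same order in 8 of 8 libraries, with medians of 6.03 in Oligo2 (5.86 to 6.15), 6.40 in Oligo3 (6.20 to 6.63) and 7.33 in Oligo4 (7.23 to 7.51). On the linear scale Oligo4 cells carried 198 to 237 Mal UMIs per 10000 and Oligo2 cells 75.7 to 95.7. Cldn11 was also highest in Oligo4 in 8 of 8 libraries, at a median of 5.40 (5.18 to 5.72). The ranges of Oligo2 and Oligo3 overlapped for Cldn11, at 4.64 to 5.06 and 4.54 to 5.01. Within a library, Cldn11 was lowest in Oligo3 in 7 of 8 libraries and in Oligo2 in 1.

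The other members had shallower profiles. Cnp and Mog were highest in Oligo4 in 8 of 8 libraries, with spreads between clusters of 0.34 to 0.52 and 0.22 to 0.44 log2 units within a library. Mobp was lowest in Oligo3 in 8 of 8 libraries, by 0.27 to 0.43 below the highest cluster. Plekhb1 was highest in Oligo2 in 8 of 8 libraries, by 0.12 to 0.24 over the lowest cluster. Mbp and Mag were each highest in Oligo2 in 5 libraries and in Oligo4 in 3. Mbp and Mag spread by at most 0.18 and 0.14. Both were among the genes that had been used to recognise the cells, as was Mog with its wider spread.

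**Figure D3:**
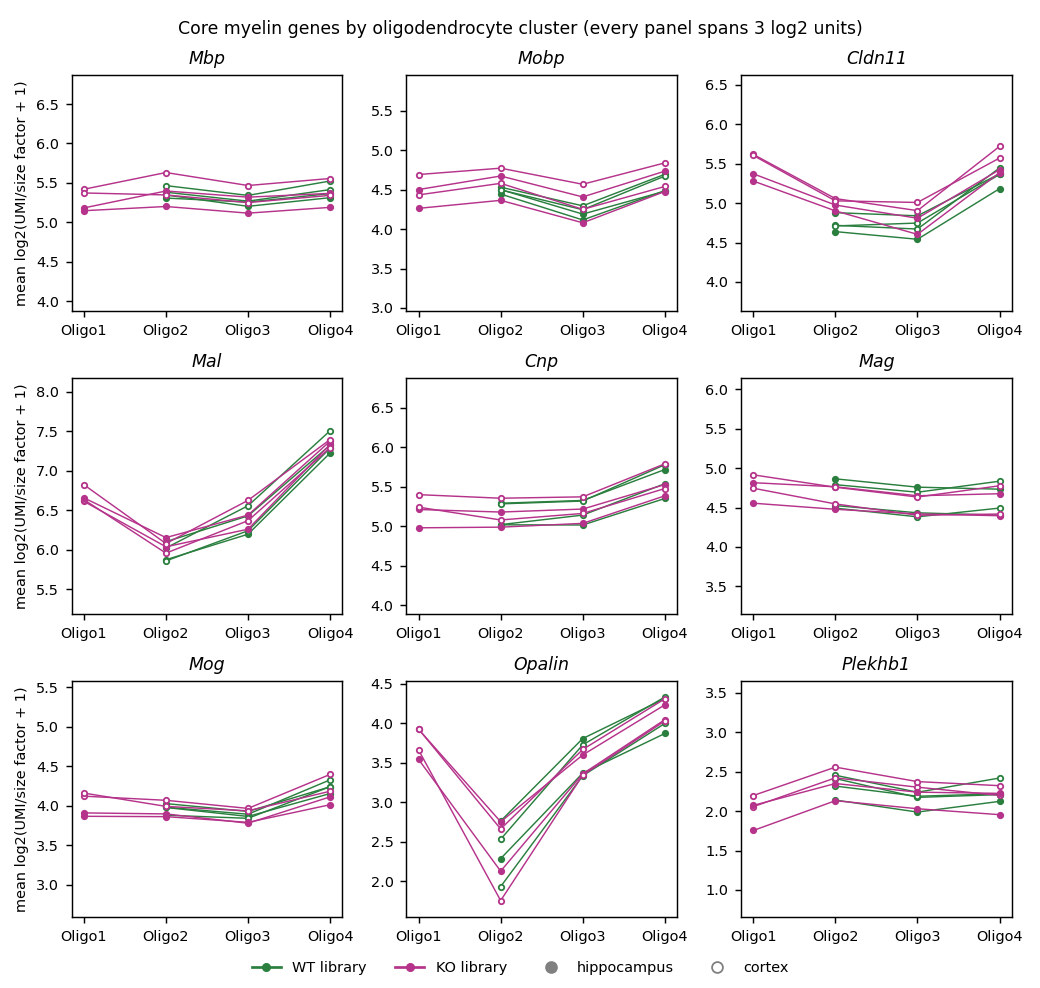
Mean log2(UMI/size factor + 1) of each gene by cluster, 1 line per library (green WT, magenta KO, filled hippocampus, open cortex), for clusters with at least 20 cells in a library. Opalin and Mal climb from Oligo2 to Oligo4 in every library, and Oligo1, plotted for the 4 KO libraries, lies near Oligo4 for Cldn11 and between Oligo3 and Oligo4 for Opalin and Mal.

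Oligo1 had at least 20 cells in the 4 KO libraries and not in WT libraries (0 to 6 cells), so it was set against the other cells of KO mice. Cldn11 was higher in Oligo1 than in Oligo2 to Oligo4 in 4 of 4 libraries, by 0.42 to 0.63 log2 units. Oligo1 did not differ from Oligo4 in a common direction for Cldn11 (-0.11 to 0.03). Opalin was higher by 0.33 to 0.71, Mal by 0.11 to 0.34 and Mag by 0.13 to 0.30, each in 4 of 4 libraries, and Mog by 0.02 to 0.19. Mag was the member whose level in Oligo1 exceeded that of each other cluster in 4 of 4 libraries, by 0.05 to 0.20 over Oligo2, 0.14 to 0.34 over Oligo3 and 0.14 to 0.33 over Oligo4. Plekhb1 went the other way, lower in Oligo1 by 0.19 to 0.29 and below each other cluster in 4 of 4 libraries. Mbp (-0.16 to 0.09), Cnp (-0.11 to 0.07) and Mobp (-0.02 to 0.07) had no common direction when set against all Oligo2 to Oligo4 cells. Against single clusters, Mobp was lower in Oligo1 than in Oligo2 (-0.17 to -0.08) and Oligo4 (-0.23 to -0.11) in 4 of 4 libraries. Mobp was higher in Oligo1 than in Oligo3 (0.09 to 0.18), also in 4 of 4. Cnp (-0.41 to -0.24), Mog (-0.28 to -0.02), Opalin (-0.50 to -0.31) and Mal (-0.72 to -0.57) were lower in Oligo1 than in Oligo4 in 4 of 4 libraries. These are descriptions over 2 KO mice.

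The 250 bases before the RefSeq start of Cldn11, Mal, Opalin and Cnp are printed because these 4 genes were the most closely correlated across cells, as given after them. They were taken from RefSeq (GRCm38.p6) for 8 of the 9 genes and are written 5′ to 3′ in the direction of the gene. Capitals mark matches, on either strand, to a SOX core (ACAAAG, or CTTTGT on the other strand), a MYRF core (CTGGCAC or GTGCCAG) or a TATA box (TATAAA or TTTATA). SOX10 and MYRF are transcription factors of the oligodendrocyte lineage. The windows are chr3:31149670-31149919 on the plus strand for Cldn11, chr2:127656696-127656945 on the minus strand for Mal, chr19:41077114-41077363 on the minus strand for Opalin and chr11:100574689-100574938 on the plus strand for Cnp. The GENCODE start of Cnp lies before the RefSeq start, so the last 35 bases of its window fall inside the gene position given above.
Cldn11: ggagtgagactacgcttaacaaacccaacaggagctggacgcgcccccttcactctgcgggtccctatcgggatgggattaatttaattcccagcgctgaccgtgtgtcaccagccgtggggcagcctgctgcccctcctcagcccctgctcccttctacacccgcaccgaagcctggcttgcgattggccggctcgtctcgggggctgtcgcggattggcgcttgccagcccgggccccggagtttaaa
Mal: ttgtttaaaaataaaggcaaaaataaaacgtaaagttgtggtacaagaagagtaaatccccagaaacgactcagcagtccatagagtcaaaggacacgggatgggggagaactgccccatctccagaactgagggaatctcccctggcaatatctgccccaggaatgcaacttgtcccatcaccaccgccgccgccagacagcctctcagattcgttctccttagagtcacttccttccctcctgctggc
Opalin: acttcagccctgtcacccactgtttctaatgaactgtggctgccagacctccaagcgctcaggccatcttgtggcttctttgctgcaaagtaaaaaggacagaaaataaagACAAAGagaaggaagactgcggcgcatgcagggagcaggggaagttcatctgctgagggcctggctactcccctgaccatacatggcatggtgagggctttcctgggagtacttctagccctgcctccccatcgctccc
Cnp: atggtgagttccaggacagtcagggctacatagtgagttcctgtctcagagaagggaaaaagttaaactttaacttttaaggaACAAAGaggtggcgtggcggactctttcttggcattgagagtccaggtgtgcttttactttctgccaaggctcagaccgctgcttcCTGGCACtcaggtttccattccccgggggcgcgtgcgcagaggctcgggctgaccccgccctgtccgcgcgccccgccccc
Cldn11 and Mal held 0 matches, Opalin 1 SOX core, and Cnp 1 SOX core and 1 MYRF core. Mobp held 6 SOX cores in its window, all as CTTTGT. Of all 32851 mouse promoter windows of this length, 16.5% held the SOX core, 4.19% the MYRF core and 12.4% the TATA box, with no overlap between these motifs in the windows printed. A match is a run of letters, not a binding site.

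Across single cells most members were positively correlated, with Plekhb1 apart. Within Oligo3, where differences between clusters play no part, the Pearson correlation of log2 values over the cells of a library was highest for Cldn11 and Mal, at a median of 0.58 over 8 libraries (0.55 to 0.71). Mal and Opalin followed at 0.46 (0.41 to 0.54), then Cldn11 and Cnp at 0.42 (0.34 to 0.45) and Cnp and Mog at 0.42 (0.34 to 0.46). Of the 36 pairs, 31 were above 0 in 8 of 8 libraries, and the median pair had 0.26. Plekhb1 was near 0 with most others, at -0.01 with Mag, 0.00 with Opalin, 0.03 with Mog and 0.04 with Cnp. It was also the gene with the fewest counts, 4.11 to 5.90 UMIs per 10000. The part of counting error in its low correlations was not tested. Cells of a library share its depth range and size factors, and the correlations are descriptions over cells. Correlation of a member with the log2 depth of its cell was weak, with medians from -0.14 for Opalin to 0.15 for Mobp.

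**Figure D4:**
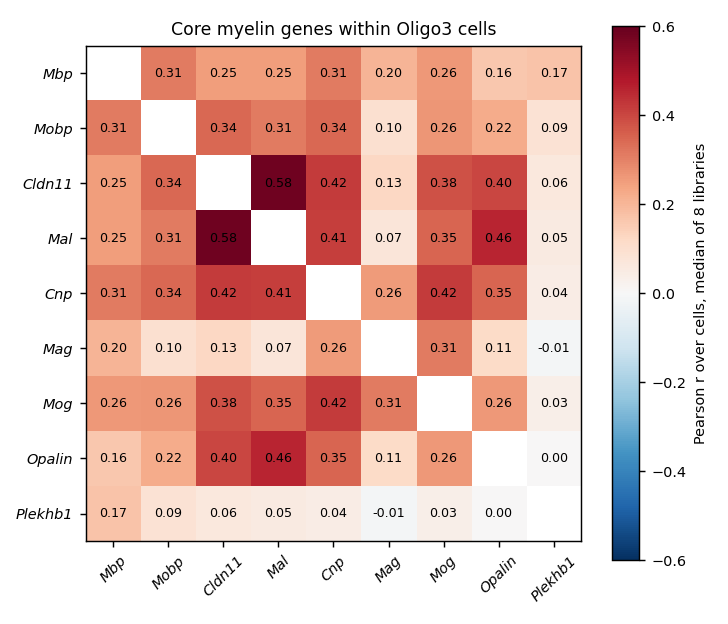
Pearson correlation between genes over the Oligo3 cells of a library, shown as the median of 8 libraries with the value printed in each square. Cldn11, Mal, Cnp, Mog and Opalin form the darkest block, and the row of Plekhb1 is close to 0 apart from 0.17 with Mbp.

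Opalin, Mal and Cldn11, the members that varied most between clusters, also had the largest spread between cells. The coefficient of variation left after the counting error of UMIs was subtracted was 40.3% to 56.9% for Opalin and 38.7% to 43.1% for Mal. Cldn11 followed with 27.9% to 33.6%, Mog with 25.9% to 28.7% and Mobp with 23.6% to 27.3%, whereas Cnp had 19.6% to 23.9%, Mbp 20.3% to 25.7% and Mag 20.6% to 23.7%. Plekhb1, with 4.11 to 5.90 UMIs per 10000 the gene with the fewest counts, had 18.1% to 25.5%.

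Mice of 1 genotype differed in the same genes in both genotypes. Opalin was higher in mouse 1 than in mouse 4 and in mouse 3 than in mouse 6, by 0.46 and 0.34 in hippocampus and by 0.32 and 0.44 in cortex. Mag differed the same way by 0.23 to 0.32 and Cnp by 0.17 to 0.29 in the 4 comparisons. Mal was lower in mice 1 and 3 in 4 of 4 comparisons, by 0.13 to 0.36, and Cldn11 by 0.05 to 0.32. Mog (0.02 to 0.04) and Mbp (0.03 to 0.21) were slightly higher in mice 1 and 3. With 2 mice of each age, these differences were not tested, and age, batch and the animal cannot be told apart. For every member but Cldn11 and Mobp, all 4 of these differences exceeded in size the genotype difference of the same gene.

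**Figure D5:**
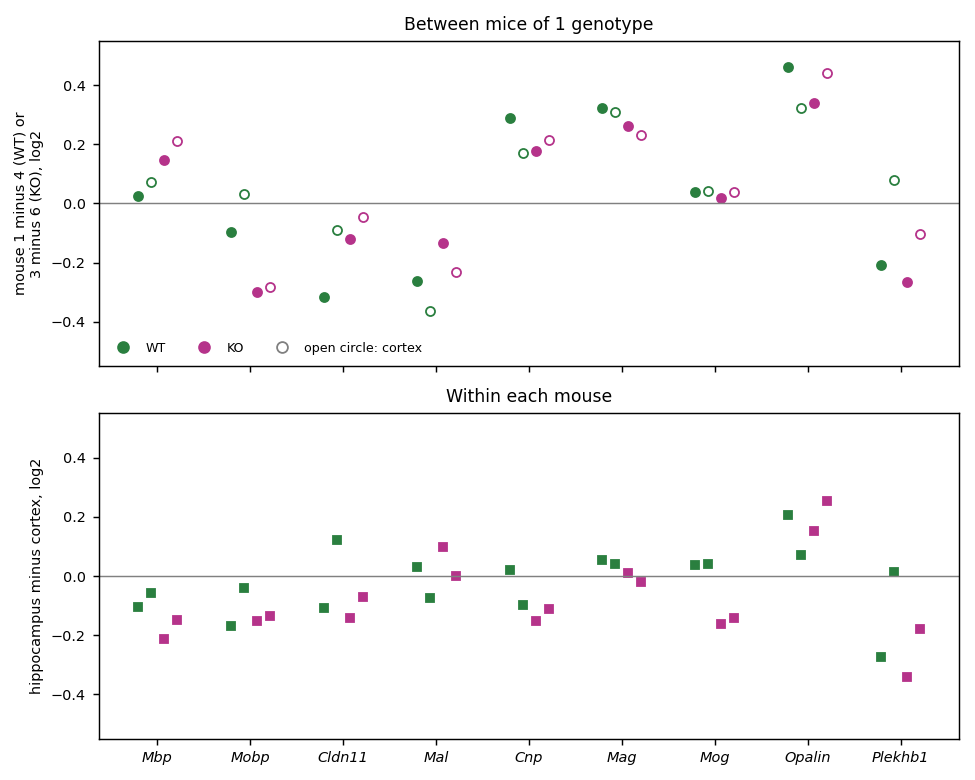
Upper panel, difference in mean log2(UMI/size factor + 1) between the mice of a genotype (mouse 1 minus 4 in green for WT, mouse 3 minus 6 in magenta for KO, open circles for cortex), and lower panel, hippocampus minus cortex within each of the 4 mice. Opalin, Mag and Cnp are above 0 in 4 of 4 comparisons and Mal and Cldn11 below 0 in the upper panel, and Opalin is above 0 and Mbp and Mobp below 0 in 4 of 4 mice in the lower panel.

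Between tissues no member passed the test, and the differences were small. Each batch held libraries of 1 tissue, so a tissue difference cannot be told apart from one between batches. Opalin was higher in hippocampus in 4 of 4 mice, by 0.21 and 0.07 in WT mice 1 and 4 and by 0.15 and 0.25 in KO mice 3 and 6. Mbp was lower in hippocampus in 4 of 4 mice, by 0.06 to 0.21, and so was Mobp, by 0.04 to 0.17. Plekhb1 was lower in hippocampus in 3 of 4 mice, with differences from -0.34 to 0.01. Over the 8 libraries with genotype in the model, limma called 0 of 9257 genes (0%), with 451 at an unadjusted p under 0.05, and edgeR called 0. The means were -0.20 for Plekhb1 (SE 0.09, adjusted p = 0.996), 0.17 for Opalin (SE 0.16, adjusted p = 0.997), -0.13 for Mbp and -0.12 for Mobp. Both libraries of a mouse come from the same animal, and with mouse as a replicate block limma called 58 of 9257 genes (0.627%) but again 0 of the 9 members. In that fit the adjusted p was 0.105 for Plekhb1, 0.118 for Mbp, 0.126 for Opalin and 0.197 for Mobp. There 4 members had an unadjusted p under 0.05, as had 1744 of the 9257 genes (18.8%).

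The genotype difference did not differ detectably between the tissues for any member. The test compared the hippocampus minus cortex difference of KO mice with that of WT mice, and limma called 2 of 9257 genes (0.0216%) and 0 of the 9 members, with 0 at an unadjusted p under 0.05. Mog came nearest. Its hippocampus minus cortex difference was 0.04 in both WT mice and -0.16 and -0.14 in KO mice 3 and 6, a change of -0.19 (SE 0.09, interval -0.39 to 0.00, unadjusted p = 0.0510, limma adjusted p = 0.797). The other members had adjusted p values from 0.844 to 0.948.

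A list of 40 other genes of myelin and the mature oligodendrocyte, set down with earlier results of these data known, was read from the same fits. Limma called 0 of the 40 between genotypes, with 1 at an unadjusted p under 0.05, against 2.02% of all genes tested. KO was above WT for 26 and below for 14, and the median difference was 0.05, against 0.00 over all 9257 genes and 0.01 over the 9 members. The 3 highest were Apod, a lipid carrier, at 0.32 (SE 0.25), Cd59a, a complement inhibitor, at 0.27 (SE 0.08, interval 0.08 to 0.47, unadjusted p = 0.0143) and Gsn, an actin-severing protein, at 0.26 (SE 0.17), each with a limma adjusted p of 1.00. The 3 lowest were Gjc3, a connexin, at -0.21 (SE 0.17), Qdpr, which recycles tetrahydrobiopterin, at -0.14 (SE 0.20) and the septin gene Sept4 at -0.12 (SE 0.22). Limma called 0 of the 40 within Oligo2, Oligo3 and Oligo4, between tissues and in the comparison of genotype by tissue. With the replicate block limma again called 0 of the 40 between tissues, with a lowest adjusted p of 0.0864. In that fit 5 of the 40 had an unadjusted p under 0.05, against 18.8% of all genes tested.

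Genes outside the 9 whose levels ran most like the mean of the members, each scaled to an SD of 1, were sought over 28 library and cluster means. Pearson r was 0.92 for Cers2, a ceramide synthase that makes very long chain ceramides of myelin lipids, 0.91 for 2810468N07Rik, 0.91 for Snx15, a sorting nexin, 0.90 for Rhob, a small GTPase, and 0.89 for Gamt, an enzyme of creatine synthesis. Of the members themselves, Mog ran closest to that mean at 0.96, followed by Cnp at 0.88 and Cldn11 at 0.78, and Plekhb1 was farthest at 0.15. The 28 means share libraries, mice and the clustering, and r describes them without a test.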

How the data were processed

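Brain cells were dissociated with actinomycin D, sorted for live cells by scatter and viability dyes, and sequenced with 10x Chromium 3′ v3.1 chemistry. The authors aligned reads with Cell Ranger 5.0.0 to mm10, kept mature oligodendrocytes with at least 5000 UMIs, normalized with scran and deposited values of log2(UMI count/size factor + 1). The deposited cell table gives counts of UMIs per cell, size factors (a score) and cluster numbers per the file headers. No doublet caller was run here. UMI counts recovered from the log2 values were whole within 0.001 for each of 42420937 values above 0.

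Library means, and for clusters means over at least 20 cells, were averaged per mouse and tested with limma 3.58.1 (trend) in R 4.3.3 on genes detected in 5% of cells or more, with a Benjamini-Hochberg threshold of 0.05. edgeR 4.0.16 and DESeq2 1.42.0 on UMI sums, a pair block, other scales and filters, and leaving out each mouse were alternatives. The mouse numbers of the labels pair libraries, and equal numbers were taken to mark 1 animal. Deviations of such libraries correlated between tissues at 0.84 in WT and 0.85 in KO over 9257 genes. Within a genotype the mouse number coincides with age and batches, so this correlation cannot show that the animal is the same. Tests were run on simulated data first. With 2 mice per genotype, limma p-values rest only in part on the spread between these mice. Limma draws the spread of a gene toward that of other genes of similar mean level, so an SE can differ from the gene's own spread.

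The members and lists were chosen with earlier results of these data known. Genes were named by rule: the 9 members, called genes of the 40-gene list and its 3 highest and 3 lowest genotype differences, and the 5 genes most like the members' mean. Marker lists for astrocytes, progenitors, newly formed oligodendrocytes, microglia, neurons, endothelium and erythrocytes were read as summed levels.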

Additional observations from a re-analysis of the deposited data

Results flagged for a closer look

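For Mog, KO minus WT was -0.08 in hippocampus (-0.09 and -0.07 in the 2 batches) and 0.11 in cortex (0.11 in both), and it is listed because the samples of each tissue moved in opposite directions. The test of the difference itself gave a limma adjusted p of 0.797. For Plekhb1 the same held, with -0.04 in hippocampus and 0.09 in cortex on average, although 1 of the cortex differences was 0.00, and the limma adjusted p of the difference was 0.860.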

How the results depend on the processing

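In all 65 fits, 59 of them alternatives, 0 of the 9 members were called, and the lowest adjusted p was 0.105. The number of all genes called did depend on the setting, and the cause was not tested. Between genotypes 5 genes were called in the fit reported, 9 with log2 of the mean normalized UMI count plus 0.1 or plus 1, 0 with no filter or a constant variance prior, 8 with edgeR, 49 with DESeq2, 3 in cortex only or after centring on the median gene, 2 over Oligo2 to Oligo4 cells only, and 28 with the pair block. Leaving out 1 mouse gave 50 to 75. Such fits leave 1 genotype with a single mouse, assumed to vary like the other genotype, and say nothing about the stability of a call. In Oligo2 (2 genes) edgeR called 4, the pair block 11 and leaving out 1 mouse 26 to 41. In Oligo3 (1 gene) the other scales called 4 and 2, edgeR 3, the pair block 5 and leaving out 1 mouse 22 to 40. In Oligo4 (9 genes) the other scales called 14 and 18, edgeR 25, the pair block 58 and leaving out 1 mouse 27 to 33. For the comparison of genotype by tissue (2 genes) the scale with 0.1 added and no filter each called 0, and leaving out 1 mouse gave 0 to 75, with 75 when KO mouse 6 was absent. Between tissues the replicate block called 58 in place of 0, and it changed no member's call. The pair blocks in single clusters and the equal weighting of clusters were chosen after seeing the data.

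Genotype differences near 0 changed sign, none of them called, where 0.00 at 2 decimals was taken to have no direction. With edgeR, and likewise with DESeq2, they were -0.01 for Mbp, -0.02 for Mog, 0.05 for Opalin and -0.01 for Plekhb1. In hippocampus only they were -0.04 for Mbp, -0.08 for Mog, 0.01 for Opalin and -0.04 for Plekhb1. With clusters weighted equally Mog was at -0.03, and the scales with 0.1 and 1 added gave 0.03 and 0.02 for Opalin. Leaving out 1 mouse gave -0.08 to 0.10 for Mbp, -0.03 to 0.28 for Mal, -0.12 to 0.11 for Cnp, -0.16 to 0.16 for Mag, -0.01 to 0.03 for Mog, -0.21 to 0.18 for Opalin, -0.06 to 0.12 for Plekhb1, 0.00 to 0.30 for Mobp and 0.19 to 0.40 for Cldn11. Between tissues it gave -0.02 to 0.04 for Mal, and for genotype by tissue -0.10 to 0.03 for Mobp and -0.27 to 0.01 for Plekhb1. Of 339 alternative values of member differences, 25 changed direction and 0 were called.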
